A study of Mus musculus with 6 samples.

Results

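The genes described here are 10 genes that cells are known to switch on when oxygen is short: Vegfa, Bnip3, Bnip3l, Egln1, Egln3, Ankrd37, Ndrg1, Ddit4, Higd1a and Bhlhe40. They were read by gene name from the deposited table of 31265 genes. All 10 were present, and all 10 had a mean of at least 1 FPKM (fragment counts scaled by transcript length and library size), as did 12191 genes of the table. The cells were E14Tg2a, a mouse embryonic stem cell line labelled wild type and called clonal in the design text, carrying the glutathione redox sensor Grx1-roGFP2 in the nucleus. All were differentiated as hanging-drop embryoid bodies in medium without LIF and 2i for 5 days, and the labels name no oxygen treatment. From each of 3 populations (A, B, C), live cells in the 10% tail of highest sensor oxidation and in the opposite 10% tail were collected, so each state has 3 libraries. The question is whether cells at the extremes of nuclear redox state differ in their expression of these genes. The labels do not say what separates the populations (culture, day or another step), nor which promoter drives the sensor, so p-values measure only the spread between these populations.

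As background, the transcription factor HIF pairs an oxygen-regulated alpha subunit (Hif1a or Epas1) with the constant partner Arnt. In oxygen, prolyl hydroxylases such as those encoded by Egln1 and Egln3 mark the alpha subunit for the Vhl ubiquitin ligase. When oxygen falls the mark is not made, HIF accumulates and binds the core sequence ACGTG or GCGTG near its target genes. These targets include the hydroxylases themselves, genes that draw in blood vessels, genes of mitophagy and regulators of growth. Several of them also answer to other stresses, for example Ddit4 to amino acid shortage and DNA damage.

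Promoters of 4 members are shown because they hold the HIF core sequence and belong to members with different patterns: Bnip3 and Ddit4 were lower in oxidized cells of every population, Egln1 was higher in every population, and Ankrd37 had no common direction. The stretches are the 250 bases before the RefSeq transcript start on GRCm38.p6, all on the minus strand and written 5′ to 3′. They lie at chr7:138909507-138909756 (Bnip3), chr10:59951771-59952020 (Ddit4), chr8:124949255-124949504 (Egln1) and chr8:45999851-46000100 (Ankrd37). Capitals mark ACGTG on either strand.
Bnip3: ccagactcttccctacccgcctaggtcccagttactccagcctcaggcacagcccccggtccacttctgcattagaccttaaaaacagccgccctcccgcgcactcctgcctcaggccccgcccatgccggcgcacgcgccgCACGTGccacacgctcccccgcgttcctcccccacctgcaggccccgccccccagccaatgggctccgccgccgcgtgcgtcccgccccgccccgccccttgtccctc
Ddit4: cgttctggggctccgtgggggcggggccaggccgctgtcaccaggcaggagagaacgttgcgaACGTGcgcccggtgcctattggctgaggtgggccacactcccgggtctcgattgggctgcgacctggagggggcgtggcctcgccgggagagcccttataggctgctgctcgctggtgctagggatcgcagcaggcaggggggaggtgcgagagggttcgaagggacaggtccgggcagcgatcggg
Egln1: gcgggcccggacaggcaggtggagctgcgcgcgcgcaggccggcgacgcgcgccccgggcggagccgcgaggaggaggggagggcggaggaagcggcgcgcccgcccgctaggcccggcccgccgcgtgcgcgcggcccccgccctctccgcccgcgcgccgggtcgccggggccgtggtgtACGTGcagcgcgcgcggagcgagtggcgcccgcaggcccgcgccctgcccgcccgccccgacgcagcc
Ankrd37: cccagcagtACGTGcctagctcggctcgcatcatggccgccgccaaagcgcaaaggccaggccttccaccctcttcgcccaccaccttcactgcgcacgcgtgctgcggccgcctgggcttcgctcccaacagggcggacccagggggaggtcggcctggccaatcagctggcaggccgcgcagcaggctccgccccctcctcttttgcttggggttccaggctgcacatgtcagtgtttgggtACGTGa
In Bnip3 the capitals form CACGTG, which reads as ACGTG on both strands and is also the E-box that Bhlhe40 is known to bind. The match lies 68 bases before the start in Egln1, 187 in Ddit4, and 6 and 241 in Ankrd37. The promoter table holds 7 of the 10 members in 8 windows of 300 bases, 250 before to 50 after a start. ACGTG occurs in 7 of these 8 windows and in 19.6% of all 32851 windows. The window without it is that at the annotated 5′ end of Vegfa, whose match lies in a second window inside the gene, and the Higd1a match lies after the start. GCGTG occurs in 6 of the 8 and in 32.4% of all windows, and the overlapping motif CACGTG in 1 of the 8 and in 7.15%. A match is a description of the letters and not evidence of binding.

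Some facts of the whole series bear on the values. Oxidized A and B stood apart from the other 4 libraries. A locus annotated as ribosomal RNA (CT010467) was listed at 1410 and 1736 FPKM there and at 34116 to 43825 FPKM in the others, and the 13 mitochondrially encoded mRNAs summed to 7348 and 5160 FPKM against 2324 to 3917 FPKM. The sum does not stand for each of them. Between the oxidized and reduced groups 10 had a positive log2 difference and 3 a negative one, among them the abundant mt-Atp6 (-1.33). Of the markers of the labelled cells, 7 of 8 pluripotency genes and 8 of 8 primitive streak and mesoderm genes had a mean of at least 1 FPKM. The summed pluripotency markers were lower in oxidized cells (722 to 1834 FPKM) than in reduced cells (2046 to 2240 FPKM), a sum carried mainly by Dppa5a (mean 1303 FPKM). Pou5f1, Zfp42 and Dppa5a, 3 of the 7 tested, lay lower in oxidized libraries without overlap, where 8.81% of all 12191 tested genes did. Nanog differed in direction, with oxidized values of 44.3, 49.0 and 11.5 FPKM (A, B and C) against 18.2 to 27.2 FPKM in reduced cells. The streak and mesoderm markers summed to 228 to 246 FPKM (oxidized) and 132 to 207 FPKM (reduced), mainly through Hand1 (mean 118 FPKM, log2 difference 0.94). Directions were mixed, with 3 positive and 5 negative. T was lower in oxidized cells (-1.53) and was the 1 marker of these 8 called (limma adjusted p = 0.0158, and 0.0601 with the population letter as a block). Immediate early genes, which respond to dissociation, gave sums of 306 to 402 FPKM (oxidized) and 215 to 296 FPKM (reduced), carried mainly by Ier2 (mean 178 FPKM). Jun had a log2 difference of 0.94, whereas Fos (-0.033) and Junb (0.0098) were near 0. The part of these shifts in the results below was not tested. In these bulk samples, fewer cells of a type and less RNA per cell cannot be told apart.

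None of the 10 genes passed the test between oxidized and reduced cells. With limma and Benjamini-Hochberg adjustment over all 12191 genes, 0 of 10 were called, where 0.796% of all tested genes were. With the population letter as a block 0 of 10 were called, beside 0.0328% of tested genes. In the fit without it 2 of 10 had an unadjusted p under 0.05, against 19.4% of all tested genes. The groups did not overlap for 2 of 10 members, Vegfa with oxidized above and Ndrg1 with oxidized below, against 25.0% of all tested genes (16.2% with oxidized above and 8.81% with oxidized below). The members did not share a direction: 6 had a positive difference and 4 a negative one, and their median log2 difference was 0.12, beside 0.08 over all tested genes. Adjusted p-values ran from 0.154 to 0.948. By the authors' deposited table, a single member had a q under 0.05, beside 2.76% of all its 31265 genes. Unlike the 12191 tested genes, that base also holds genes with a mean under 1 FPKM, so the 2 shares are not on equal terms. The member was Ndrg1 (fold 0.590, authors' q = 0.0260), which the authors' deposited table does not mark as significant. The smallest log2 fold among the genes it marks is 1 in size.

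**Figure D1:**
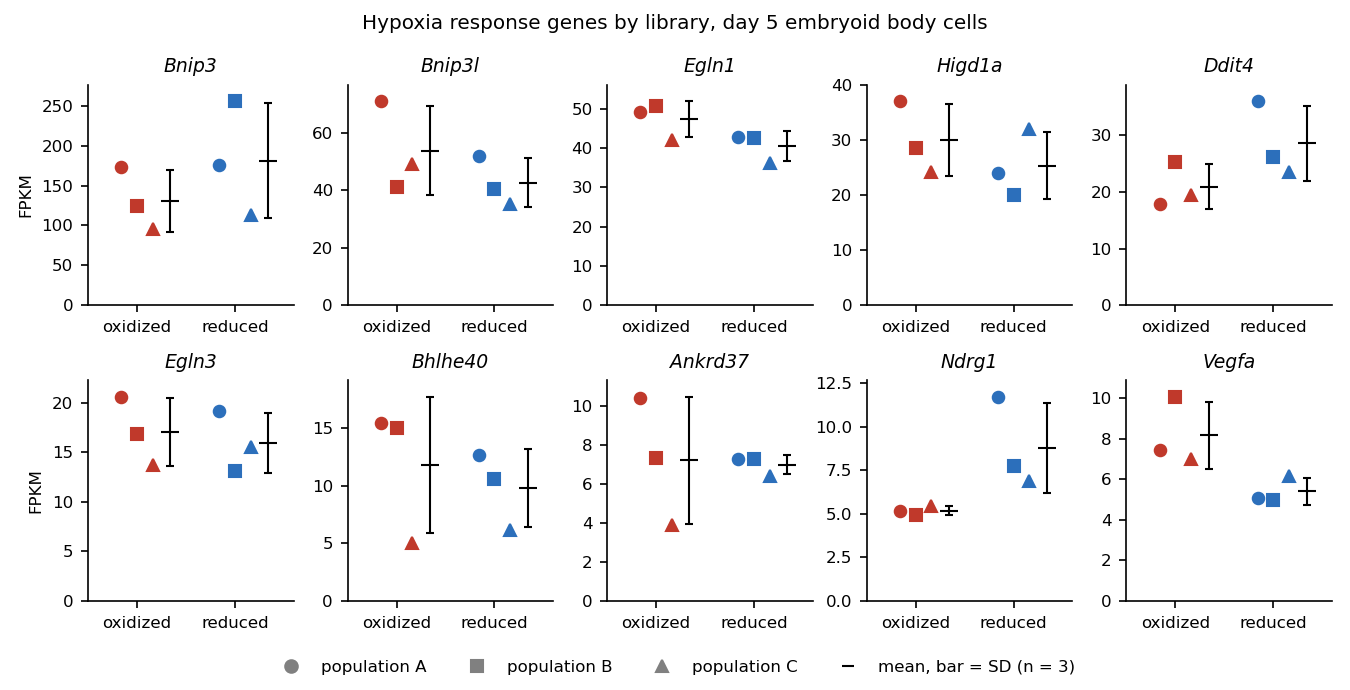
FPKM of each gene (vertical axes, each from 0) in the 3 oxidized and 3 reduced libraries, with marker shapes for populations A, B and C and the mean with SD (n = 3) beside each group. Only Vegfa and Ndrg1 have groups that do not overlap, and Bhlhe40 is lowest in population C in both groups, at 5.00 and 6.11 FPKM.

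FPKM is scaled per length, so levels can be ordered between genes. Bnip3 had by far the highest mean over the 6 libraries, at 156 FPKM, and was above Bnip3l in 6 of 6 libraries with no overlap of their ranges. Bnip3l (48.2 FPKM) and Egln1 (44.0 FPKM) did not differ beyond their spread, as Bnip3l was higher in 3 of 6 libraries. Higd1a (27.6 FPKM) and Ddit4 (24.8 FPKM) followed, with Higd1a higher in 4 of 6. Egln3 was at 16.5 FPKM and Bhlhe40 at 10.8 FPKM. Ankrd37 (7.10 FPKM), Ndrg1 (6.99 FPKM) and Vegfa (6.79 FPKM) had overlapping ranges, and none was above the next in more than 3 of 6 libraries.

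Among secreted signals, Vegfa encodes the main growth factor for endothelial cells (chr17:46016993-46032369, minus strand, mm10). It had oxidized values of 7.44, 10.1 and 6.99 FPKM (A, B and C) and reduced values of 5.09, 4.98 and 6.18 FPKM (A, B and C). Every oxidized library lay above every reduced one, and the smallest within-population gap was in C. The difference was 0.50 (SE 0.18, 95% interval 0.09 to 0.92) on the log2(FPKM + 1) scale, with an adjusted p of 0.187. Leaving out oxidized A and B, so that a single oxidized library remains, gave 0.32 (adjusted p = 0.582).

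Other ligands of the family lay on the same side. Vegfc, a lymphatic growth factor, averaged 12.7 ± 2.07 FPKM (oxidized) and 6.55 ± 0.438 FPKM (reduced; SD, n = 3 each; log2 difference 0.85, limma adjusted p = 0.0612). Placental growth factor (Pgf) was at 5.41 ± 1.20 against 2.65 ± 0.781 FPKM (0.82, adjusted p = 0.114), and Vegfb at 40.6 ± 8.43 against 26.2 ± 5.43 FPKM (0.61, adjusted p = 0.173). All 4 ligands with a mean of at least 1 FPKM had oxidized libraries above reduced ones without overlap, where 16.2% of tested genes did, and none was called. The 11 visceral endoderm markers, of which 8 had a mean of at least 1 FPKM, summed to 141 to 235 FPKM (oxidized) and 101 to 241 FPKM (reduced). Apoe carried most of these sums (mean 158 FPKM, log2 difference -0.05). The other tested markers had low means, from 1.29 FPKM (Ttr) to 7.46 FPKM (Gata4). Of the 8 markers tested, 6 lay higher in oxidized libraries without overlap. Their part in the ligand values was not tested. Vegfd stayed under 1 FPKM on average.

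Of the receptors, the co-receptor Nrp1 had oxidized values of 12.8, 10.8 and 13.9 FPKM (A, B and C) above the reduced range of 4.97 to 7.61 FPKM (log2 difference 0.88, adjusted p = 0.0772). The signalling receptor Kdr was at 4.34 ± 1.19 against 3.35 ± 0.206 FPKM (0.27, adjusted p = 0.454). Of 4 receptors tested, 0 were called. The 7 endothelial markers, which include Kdr, gave sums of 14.2 to 18.0 FPKM (oxidized) and 11.7 to 14.5 FPKM (reduced). Of the 5 tested, Tie1, Esam and Tek lay higher in oxidized libraries without overlap, Pecam1 lay lower without overlap and Kdr overlapped, and 0 were called. Over all tested genes 16.2% lay higher and 8.81% lower without overlap. Their part in the values of the ligands and receptors was not tested.

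Among the oxygen sensors, Egln1 encodes the prolyl hydroxylase that is the main brake on HIF in most cells (chr8:124908587-124949324). It had oxidized values of 49.3, 50.8 and 42.2 FPKM (A, B and C) and reduced values of 42.8, 42.6 and 36.2 FPKM (A, B and C). The groups overlapped by little. Within populations the difference was alike in the FPKM values as deposited, at 0.20, 0.25 and 0.21 (A, B and C). The fitted difference was 0.22 (SE 0.16, adjusted p = 0.458), with a 95% interval of -0.13 to 0.57. It was smaller with median-ratio scaling (0.12) and with quantile normalization (0.15), so its size depends on the scaling. In the fit with the population letter as a block its adjusted p was 0.466.

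Egln3, the hydroxylase most readily induced by HIF (chr12:54178981-54203860), had oxidized values of 20.6, 16.8 and 13.7 FPKM (A, B and C) and reduced values of 19.2, 13.2 and 15.6 FPKM (A, B and C). The groups overlapped and population C differed in sign from A and B. The difference was 0.09 (95% interval -0.37 to 0.55, adjusted p = 0.836), and it was -0.012 with median-ratio scaling and -0.033 with quantile normalization. Egln2, the family member that HIF does not induce, was at 32.4 ± 2.52 against 25.3 ± 5.13 FPKM (adjusted p = 0.319). On the per-length scale the mean levels of the family ran from Egln1 (44.0 FPKM) through Egln2 (28.8 FPKM) to Egln3 (16.5 FPKM).

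Bnip3 and Bnip3l encode paired outer-membrane receptors that hand mitochondria to autophagy. Bnip3 (chr7:138890836-138909519) had oxidized values of 173, 124 and 96.0 FPKM (A, B and C) and reduced values of 175, 256 and 112 FPKM (A, B and C). Oxidized was the lower in each population, by a small margin in A and C and by 1.04 on the log2 scale in B, and the groups overlapped. The difference was -0.43 (SE 0.32, 95% interval -1.15 to 0.29, adjusted p = 0.475). Of the 50-base stretches of its transcripts, 16.6% occur in other genes, mostly pseudogenes. Among the genes that share the most stretches, those measured here (Gm6532, Gm16439 and Gm9419) had means of at most 4.07 FPKM. Genes that share fewer were not looked up.

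Bnip3l (chr14:66985239-67008877), also known for clearing mitochondria from maturing red cells, had oxidized values of 71.1, 41.2 and 49.1 FPKM (A, B and C) and reduced values of 52.1, 40.5 and 35.3 FPKM (A, B and C). Oxidized was the higher in each population, by only 0.024 on the log2 scale in B, with overlapping groups (difference 0.31, SE 0.23, adjusted p = 0.483). The value is uncertain, because 20.8% of its stretches occur in the pseudogene Bnip3l-ps. That copy was listed at up to 43.7 FPKM (oxidized) and 38.1 FPKM (reduced), close to the level of Bnip3l. Summed erythroid markers were at 628 and 642 FPKM in population C, oxidized and reduced, against 30.6 to 84.8 FPKM in A and B. Hbb-bh1 and Hba-x had by far the highest means of these markers (119 and 112 FPKM). In C, Bnip3l was within the range of the other populations in the oxidized group and the lowest in the reduced group. The part of erythroid cells in the Bnip3l values was not tested.

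The ratio of Bnip3 to Bnip3l was computed after their values were seen. The oxidized ratios were 2.43, 3.01 and 1.96 (A, B and C) and the reduced ones 3.37, 6.33 and 3.19. Because Bnip3 was the lower and Bnip3l the higher in oxidized cells of each population, a lower ratio in each follows from those values and adds nothing to them. The ratio is given as a description, with no test.

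**Figure D2:**
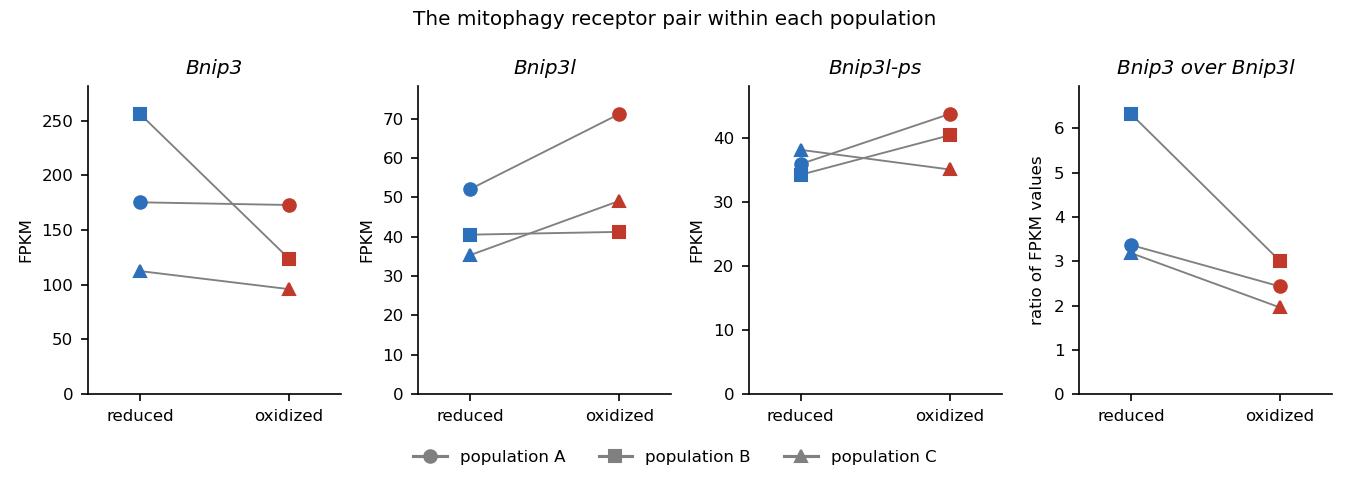
Bnip3, Bnip3l, the pseudogene Bnip3l-ps (FPKM) and the ratio of Bnip3 to Bnip3l (vertical axes from 0), with a line joining the reduced and oxidized library of each population. The ratio is lower at the oxidized end of all 3 lines, at 1.96 to 3.01 against 3.19 to 6.33.

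The other mitophagy receptors and adaptors gave 0 of 11 called, with a median of 0.05. Pink1, the kinase that marks depolarized mitochondria, had oxidized values of 13.8, 17.5 and 8.68 FPKM (A, B and C) against 5.94 to 6.53 FPKM in reduced cells (log2 difference 0.93, adjusted p = 0.109). Map1lc3b, an autophagosome protein that these receptors bind, differed by -0.32 (adjusted p = 0.493). The abundant members Phb2 and Fkbp8 were at 194 ± 6.81 against 178 ± 16.6 FPKM and at 70.5 ± 8.09 against 68.5 ± 12.2 FPKM.

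Higd1a encodes a small inner-membrane protein that stabilizes the respiratory chain when oxygen is low (chr9:121848563-121858362). It had oxidized values of 37.1, 28.4 and 24.2 FPKM (A, B and C) and reduced values of 24.0, 19.9 and 31.9 FPKM (A, B and C). Oxidized was above reduced in A and B and below it in C. The difference was 0.24 (SE 0.22, 95% interval -0.26 to 0.74, adjusted p = 0.572). Its paralog Higd2a showed the same split, with oxidized values of 111, 112 and 60.8 FPKM (A, B and C) against 59.0 to 62.5 FPKM in reduced cells (adjusted p = 0.239). Both encode mitochondrial proteins, and oxidized A and B are the libraries with the highest sums of mitochondrially encoded mRNAs. The part of these mRNAs in the values was not tested.

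Ndrg1 and Ddit4 restrain growth. Ndrg1, a cytoplasmic protein induced by hypoxia and by differentiation (chr15:66929318-66969640), had oxidized values of 5.18, 4.94 and 5.44 FPKM (A, B and C) and reduced values of 11.7, 7.72 and 6.91 FPKM (A, B and C). The oxidized libraries lay close together and below every reduced one. The means were 5.19 ± 0.253 and 8.79 ± 2.58 FPKM, a difference of -0.63 (SE 0.20, 95% interval -1.09 to -0.17, adjusted p = 0.154). With both libraries of population C left out, Ndrg1 was called (difference -0.80, adjusted p = 0.0366). That is 1 of 10 members, where 12.9% of all tested genes were called. Without oxidized A and B the difference was -0.57 (adjusted p = 0.463). Its relatives Ndrg2, Ndrg3 and Ndrg4 differed by -0.24, 0.04 and -0.14, with adjusted p-values of at least 0.506.

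Ddit4, an inhibitor of the growth kinase complex mTORC1 (chr10:59949669-59951834), had oxidized values of 17.9, 25.4 and 19.5 FPKM (A, B and C) and reduced values of 36.1, 26.2 and 23.5 FPKM (A, B and C). Oxidized was lower in each population, most in A, and the groups overlapped through B of the oxidized and C of the reduced set. The difference was -0.42 (SE 0.21, 95% interval -0.90 to 0.05, adjusted p = 0.301). Its paralog Ddit4l, at 6.49 ± 1.59 against 5.19 ± 0.260 FPKM, had a positive difference of 0.26 (adjusted p = 0.468). Of the TSC and mTORC1 components on which Ddit4 acts, 0 of 10 were called and 6 had negative differences (median -0.30). The mTORC1 inhibitor Deptor was at 2.34 ± 0.906 against 4.35 ± 0.775 FPKM (adjusted p = 0.161) and the kinase Mtor at 3.41 ± 0.834 against 5.15 ± 0.536 FPKM (adjusted p = 0.202). Rheb, the GTPase that activates mTORC1, was at 19.5 ± 2.32 against 24.8 ± 6.34 FPKM (adjusted p = 0.418). The abundant target Eif4ebp1 was at 281 ± 12.2 against 282 ± 60.6 FPKM.

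The ATF4 and p53 responses also act on Ddit4, and 0 of 10 genes of these responses were called. Asparagine synthetase (Asns), an ATF4 target, had oxidized values of 145, 134 and 120.5 FPKM (A, B and C) against 204 to 298 FPKM in reduced cells (log2 difference -0.86, adjusted p = 0.0780). Atf4 itself lay on the other side, with oxidized values of 30.6 to 47.3 FPKM and reduced values of 20.8 to 22.7 FPKM (log2 difference 0.83, adjusted p = 0.0864). The p53 target Ccng1 was at 74.6 ± 5.31 against 74.4 ± 15.2 FPKM.

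Bhlhe40 encodes a circadian and hypoxia-induced transcriptional repressor (chr6:108660629-108666925, plus strand). It had oxidized values of 15.4, 15.0 and 5.00 FPKM (A, B and C) and reduced values of 12.7, 10.6 and 6.11 FPKM (A, B and C). The level followed the population more than the redox gate, as both C libraries lay below all others. The difference was 0.16 (SE 0.40, 95% interval -0.75 to 1.07, adjusted p = 0.847). Its relative Bhlhe41 had a mean of 0.339 FPKM and was not tested.

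Ankrd37, an ankyrin repeat protein and a direct HIF target (chr8:45996902-46005707), had oxidized values of 10.4, 7.36 and 3.89 FPKM (A, B and C) and reduced values of 7.27, 7.29 and 6.42 FPKM (A, B and C). The oxidized libraries lay on both sides of the tightly grouped reduced ones. The difference was -0.042 (SE 0.28, 95% interval -0.68 to 0.60, adjusted p = 0.948), and it was 0.24 with population C left out. The gene lies on the strand opposite Ufsp2 and overlaps it. Ufsp2 ranged over 11.5 to 14.9 FPKM (oxidized) and 9.75 to 13.7 FPKM (reduced), and since the kit keeps strand but its use in counting is not stated, the value of Ankrd37 is uncertain.

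**Figure D3:**
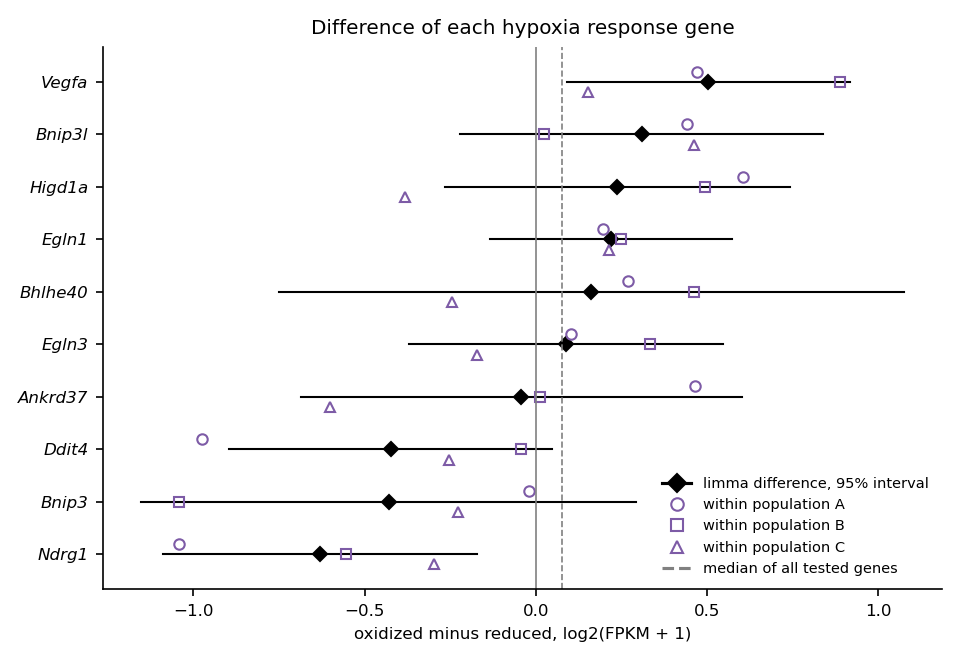
Oxidized minus reduced difference on the log2(FPKM + 1) scale for each gene, with the limma estimate and its 95% interval (diamonds and lines), the difference within populations A, B and C (open symbols) and the median of all tested genes (dashed line, 0.08). The intervals of Vegfa and Ndrg1 do not include 0, and these intervals are not adjusted for the number of genes.

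Within populations, 3 members were higher in oxidized cells of A, B and C alike (Vegfa, Bnip3l and Egln1) and 3 were lower in each (Bnip3, Ddit4 and Ndrg1). That is 6 of 10 with one sign throughout, where 43.3% of tested genes had one. Some of these differences were near 0 on the log2 scale: 0.024 for Bnip3l in B, -0.020 for Bnip3 in A and -0.044 for Ddit4 in B. The median-ratio size factors were 1.11 (oxidized B) and 0.967 (reduced B), so the sign of Bnip3l in B depends on the scaling. For Higd1a, Egln3, Bhlhe40 and Ankrd37, population C had a negative difference while A and B had positive ones. The positive difference of Ankrd37 in B was only 0.012, so its sign also depends on the scaling, and that of Egln3 in A was 0.10. The spread of each gene over the 6 libraries was also divided between the population letter, the redox gate and a remainder, as shares of the sum of squares of log2(FPKM + 1). The population letter held 90.8% for Bhlhe40, 74.6% for Egln3, 66.4% for Bnip3l and 63.2% for Ankrd37. The redox gate held 69.2% for Vegfa and 68.9% for Ndrg1, and 0.333% for Ankrd37. The median share of the population letter was 54.0% over the members and 30.3% over all tested genes, and that of the redox gate 22.2% and 28.2%. The letter was also the larger share for Bnip3 (57.3%) and, by a narrow margin, for Egln1 (50.8% against 48.8%). The letter takes 2 of the 5 degrees of freedom and the gate 1, so their shares are not on equal terms.

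**Figure D4:**
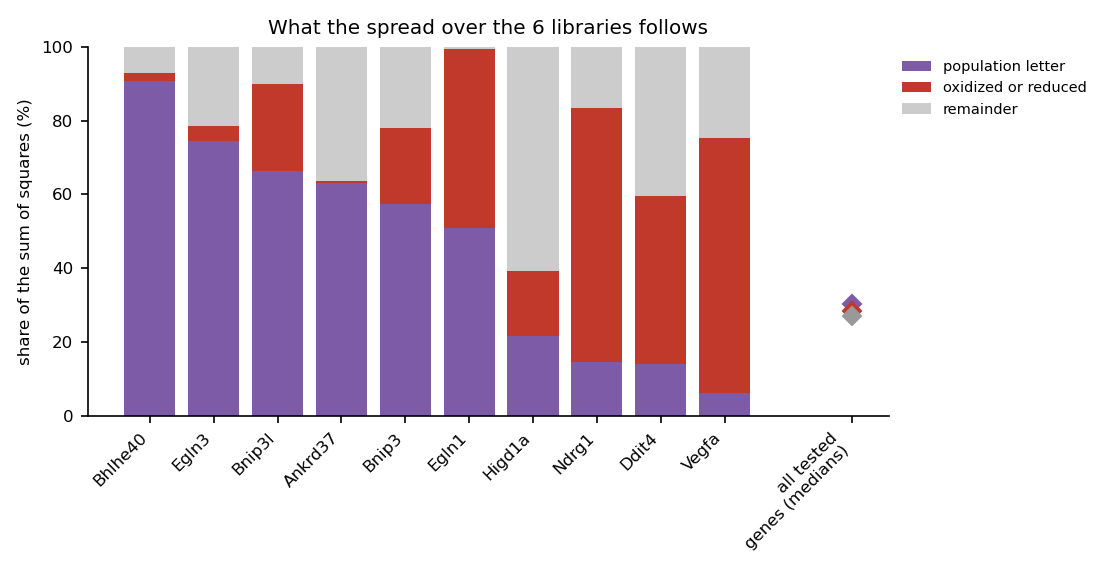
Share of the sum of squares over the 6 libraries (vertical axis, %) that goes with the population letter, with oxidized or reduced, and with the remainder, for each gene as stacked bars, with the medians over all tested genes as diamonds at the right. The population letter (2 of 5 degrees of freedom) has the largest share for Bhlhe40, Egln3, Bnip3l, Ankrd37, Bnip3 and Egln1, the redox gate (1 of 5) for Vegfa, Ndrg1 and Ddit4, and the remainder for Higd1a.

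Of the wider oxygen-sensing list of 75 other genes, 63 were tested and 0 were called, with a median of 0.08. An unadjusted p under 0.05 was reached by 10 of the 63 (15.9%), fewer than the 19.4% of all tested genes. Of these, 9 were higher and 1 lower, and all tested genes also leaned higher (13.5% higher and 5.93% lower). In the HIF machinery Hif1a averaged 16.8 ± 0.568 FPKM (oxidized) and 17.0 ± 4.74 FPKM (reduced) (difference 0.021, adjusted p = 0.963), and Epas1 lay between 0.929 and 1.47 FPKM over the 6 libraries. Siah2, a ubiquitin ligase that removes prolyl hydroxylases, had oxidized values of 5.38, 5.65 and 4.75 FPKM (A, B and C) and reduced values of 2.68, 2.47 and 3.35 FPKM (A, B and C) (0.71, adjusted p = 0.0895). Every oxidized library of Siah2 lay above the reduced ones. Elob and Rbx1, subunits of the Vhl ligase and of other ligases, were at 113 ± 6.96 against 75.1 ± 18.6 FPKM and at 67.4 ± 10.6 against 50.5 ± 7.04 FPKM (adjusted p = 0.154 and 0.253).

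Of 20 glucose uptake and glycolysis targets, 13 had positive and 7 negative differences, with a median of 0.11. Ldha, which makes lactate, was at 1550 ± 242 against 1393 ± 149 FPKM (adjusted p = 0.711), and the aldolase gene Aldoa at 1057 ± 114 against 1092 ± 171 FPKM. The smallest p-values were those of glycogen synthase (Gys1, log2 difference 0.53, adjusted p = 0.182) and the glycogen branching enzyme (Gbe1, 0.52, adjusted p = 0.207). Of 27 other HIF targets, 18 had positive differences, with a median of 0.16. Mif, a cytokine, had oxidized values of 2496, 2512 and 1293 FPKM (A, B and C) against 803 to 1297 FPKM in reduced cells (adjusted p = 0.163). The collagen lysyl hydroxylase Plod1 was at 7.31 ± 0.265 against 4.89 ± 0.225 FPKM (0.50, adjusted p = 0.132), and the mitochondrial protein Fam162a at 260.4 ± 45.6 against 224 ± 44.7 FPKM (adjusted p = 0.588). With population C left out, 7 of the 63 were called, where 12.9% of all tested genes were, so the count is no more than the background: Siah2, Mif, Pgf, Plod2, Zfp395 and Elob higher and Hif1an lower. Without oxidized C alone 5 of the 63 were called, where 9.87% of all tested genes were, namely Siah2, Mif, Plod2 and Adm higher and Hif1an lower.

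**Figure D5:**
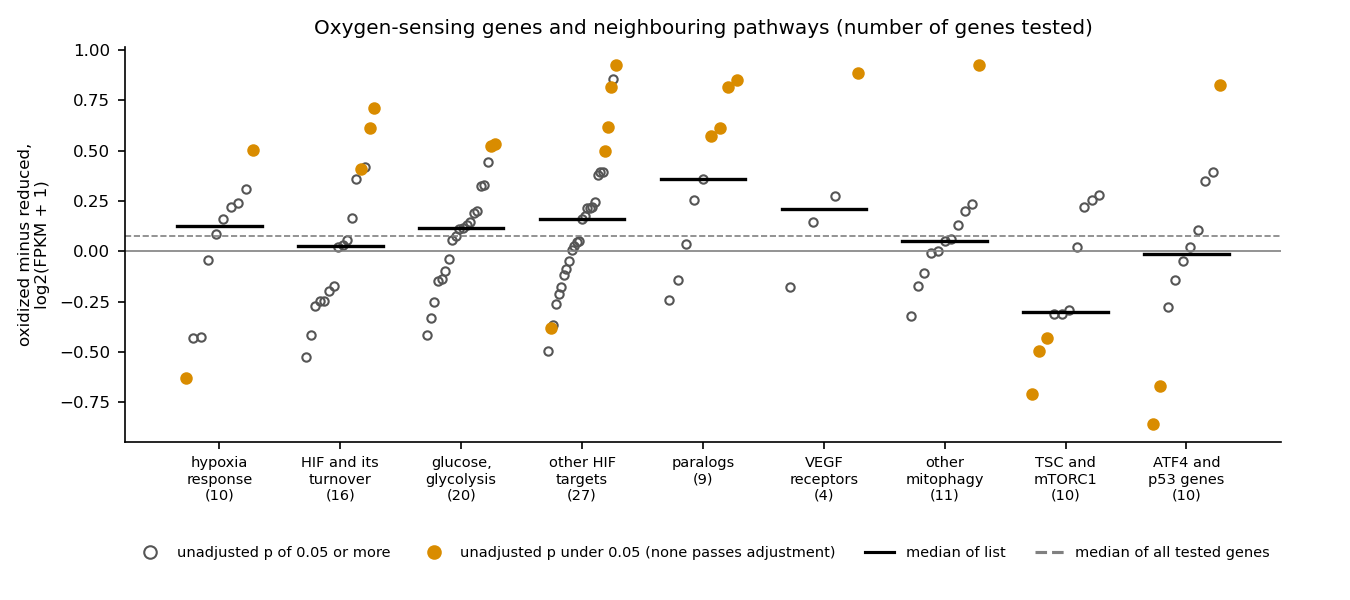
Oxidized minus reduced difference (vertical axis, log2(FPKM + 1) scale) of every tested gene in the hypoxia response set, the wider oxygen-sensing lists and neighbouring pathways, sorted within each list, with list medians (bars) and the median of all tested genes (dashed line). Filled points have an unadjusted p under 0.05, and no gene shown passes adjustment over all 12191 genes.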

How the data were processed

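Poly(A) RNA libraries of sorted day 5 cells, made with a kit that keeps strand, underwent paired-end sequencing, according to the labels. The authors deposited 1 table of FPKM values per gene and library, with a fold ratio, its log2, and p-value and q-value columns of their own comparison, per the file headers. Adapter trimming (cutadapt), HISAT2, StringTie, edgeR, FastQC and the build mm10 appear in the submitters' processing notes, without versions. Whether counting used strand, and how multiply matching fragments were treated, is not stated there. The authors' fold equals the ratio of group mean FPKM in all 23251 genes with both means above 0.

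FPKM values are not counts. Low values times transcript length gave steps of 1 fragment in only 15.6% to 26.5% of values within a tolerance of 0.02, so reads were not recovered. The best-matching step size would put the libraries at 11900000 to 18100000 fragments, a rough figure given the low match, so depth and counting error are not known from the table.

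Log2(FPKM + 1) values of 12191 genes (mean over the libraries 1 FPKM or more) were fitted with limma 3.58.1 in R 4.3.3 (group alone, eBayes with trend), two-sided, with Benjamini-Hochberg adjustment over all of them at 0.05. The fit was tested on simulated data. The log2 scale with a pseudocount of 1 understates changes of low genes. The series' design text ties oxidized and reduced libraries to populations A, B and C, so the letter pairs them. Deviations from group means correlated across genes at r = -0.056 (A), 0.070 (B) and 0.199 (C). Between unlike letters, oxidized A with reduced B gave 0.132 and oxidized B with reduced A 0.120, and the remaining unlike pairs were negative. These values do not single out the letter pairs of A and B, so that pairing rests on the design text. Alternatives were the population block, median-ratio and quantile scaling, a pseudocount of 0.1, no filter, a minimum mean of 5 FPKM, no trend and each library left out. The exclusions of oxidized A and B and of population C were added after seeing the data.

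All members are described. From each wider list the 2 most abundant genes and the 2 with the smallest p are named; other genes outside this rule (Hif1a, Epas1, Egln2, Ndrg2 to Ndrg4, Ddit4l and those called under an exclusion) were named after their values were seen. The members and lists were chosen with earlier results of these data known. Loci are from GENCODE vM21 on mm10, in which 31182 of 31265 table genes were found, and promoters from RefSeq.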

Additional observations from a re-analysis of the deposited data

How the results depend on the processing

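In the 15 alternatives run for each of the 10 genes, Vegfa, Bnip3, Bnip3l, Egln1, Ndrg1 and Ddit4 kept their direction, and 1 of 150 values was called, Ndrg1 with population C left out (1 member called in place of 0). Egln3 had a difference of -0.012 with median-ratio scaling, -0.033 with quantile normalization and -0.19 without oxidized A and B. The last setting also gave -0.032 for Higd1a and -0.79 for Bhlhe40, and it leaves 1 oxidized library, assumed to vary like the others. Ankrd37 was at 0.24 with population C left out. Leaving out 1 library at a time gave -0.051 to 0.23 for Egln3, -0.32 to 0.29 for Ankrd37 and -0.11 to 0.64 for Bhlhe40, and 0 members called throughout. The sizes of the others also moved by over 1.5 times. They ran over 0.36 to 0.60 for Vegfa, -0.77 to -0.43 for Ndrg1, -0.73 to -0.14 for Bnip3 and 0.093 to 0.48 for Bnip3l. For Egln1 they were 0.14 to 0.30, for Ddit4 -0.56 to -0.25 and for Higd1a 0.078 to 0.41. Ndrg1 was smallest in size without reduced A (-0.43, limma adjusted p = 0.402). The cause of these changes of sign was not tested.

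Over all genes 97 were called (63 higher, 34 lower), 108 with median-ratio scaling (57 and 51) and 105 with quantile normalization (54 and 51). The count was 1 without a filter, where 28179 genes share the adjustment, 4 with the population as a block, 3 to 1204 without 1 library, 11 without oxidized A and B and 1572 with population C left out. The pairing block changed no call of the 10 genes or of the wider list. The wider list had 0 to 5 called without 1 library and 7 with population C left out. At 3 against 3, an interval such as that of Bhlhe40 (-0.75 to 1.07) includes sizeable differences in either direction.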

Other observations

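Bhlhe40, Bnip3 and Ankrd37 had the widest range of log2(FPKM + 1) over the 6 libraries among the 10 genes. For each, the genes with the most similar profile were taken by the root mean square distance between profiles centred on their own mean, over these 6 libraries. For Bhlhe40 they were Mir7069, Gstm3 and Pdk1, at distances of 0.149, 0.155 and 0.161 on the log2 scale. Pdk1, a kinase that turns pyruvate away from mitochondria, is itself a member of the wider HIF target list. It had oxidized values of 19.0, 20.1 and 6.93 FPKM (A, B and C) and reduced values of 13.8, 15.1 and 10.1 FPKM (A, B and C). For Bnip3 the nearest were Zfp534, Lamtor3 and Vbp1 (0.103, 0.117 and 0.123), and for Ankrd37 Sdc4, Prc1 and Enoph1 (0.0929, 0.104 and 0.109). All genes here share the same libraries and their differences in depth, so likeness is a description.

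Hif1an, which encodes the asparagine hydroxylase that blocks HIF from its co-activators, had oxidized values of 4.44, 6.95 and 14.3 FPKM (A, B and C) and reduced values of 10.7 to 12.1 FPKM. Oxidized A and B were the lowest of the 6 libraries and oxidized C the highest (difference -0.53, limma adjusted p = 0.402). It was singled out after its values were seen.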
